A study of Mus musculus with 20 samples.

Results

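Chemokines and their receptors were followed through 5 sorted cell populations of the neonatal mouse periventricular zone. They were taken by gene name: every gene of the expression table named Ccl, Ccr, Cxcl, Cxcr or Xcr with a number and at most a letter suffix, pseudogene names left out. The rule found 53 of 45705 genes, namely 23 CC ligands, 13 CXC ligands and 17 receptors. The expression values did not enter the choice. Of these, 46 reached 1 RPKM in at least 4 of the 20 libraries and were tested. RPKM is a read count corrected for the length of the gene and the size of the library. Only 1, Ccl21b, was listed at 0 in every library.

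The study sorted cells of Swiss Webster pups at postnatal day 5 by flow cytometry, on CD133, LeX, CD140a and NG2, and asked how intermediate progenitors differ from neural stem cells (NSCs). NSCs were CD133+ LeX+ CD140a- NG2-. All 4 progenitor gates were NG2+ CD133-: BNAP/GRP1 was CD140a- LeX+, GRP2/MP3 was CD140a- LeX-, GRP3 was CD140a+ LeX- and PFMP was CD140a+ LeX+. BNAP/GRP1 (bipotential neuron astrocyte progenitor and glial-restricted progenitor 1) and GRP2/MP3 (glial-restricted progenitor 2 and multipotential progenitor 3) are each a mixture of 2 progenitors with the same antigen profile. GRP3 is glial-restricted progenitor 3, and PFMP is the PDGF-FGF-responsive multipotential progenitor. No mutation or treatment was used. Pups of both sexes in a litter were pooled. Each population has 1 library in each of 4 batches, by the batch number in the labels, and so 4 libraries.

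Chemokines are small secreted proteins that steer migrating cells through receptors coupled to G proteins. CC and CXC ligands are told apart by the spacing of their first cysteines, and many CC ligands attract monocytes and macrophages whereas several CXC ligands attract neutrophils. In the brain, microglia and other macrophages are known sources of inflammatory CC ligands, and Cxcl12 acting on Cxcr4 is known to guide neural progenitors.

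The libraries differed in ways that the population names do not give. The 5 libraries of batch 3 stood apart: chemokine genes held 1.58 to 1.79% of all their RPKM, against 0.010 to 0.486% in the other 15. Markers of other tissues were high there. Alveolar macrophage genes (8 of 8 found) summed to 1300 to 1510 RPKM in batch 3 and to at most 140 elsewhere, with 7 of the 8 above every other library. Lung epithelium genes (8 of 8 found) summed to 1018 to 1143 RPKM, against at most 66, mostly from Scgb1a1, and erythrocyte genes (3 of 3 found) to 140568 to 156195 RPKM, against at most 10722. Lymphocyte genes and neutrophil and monocyte genes summed to 490 to 548 and 463 to 533 RPKM, against at most 88 and 167. Neural genes were low: Pdgfra, which encodes CD140a, lay at 3.4 and 3.8 RPKM in the batch 3 libraries labelled GRP3 and PFMP, against 96.9 to 803 in the other 6 libraries of these gates. The Pdgfra level of these 2 libraries thus goes against their labels. It was still the highest within batch 3, where the others lay at 1.15 to 2.26 RPKM. Prom1, which encodes CD133, lay at 10.01 RPKM in NSC of batch 3 and at 0.255 to 1.36 in its other libraries. Cspg4, which encodes NG2, lay at 0.245 to 0.398 RPKM in GRP3 and PFMP of batch 3. It lay at 0.197 in NSC and at 0.036 to 0.043 in BNAP/GRP1 and GRP2/MP3, although these gates are NG2+. Whether the 5 of batch 3 hold the populations they are labelled as could not be settled here. Results are therefore also given without batch 3. BNAP/GRP1 of batch 4 stood apart as well. Its median gene lay at 8.3 RPKM, against at most 2.0 in the other 19 libraries, 38191 genes were above 0 (20116 to 39689 in the others), 51 of the 53 chemokine genes exceeded 1 RPKM, and its estimated depth was 0.0395 relative to BNAP/GRP1 of batch 1. Values near 10 RPKM in it are at the general level of that library. Read totals are not given in the sources used here, and the cause was not tested.

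**Figure D1:**
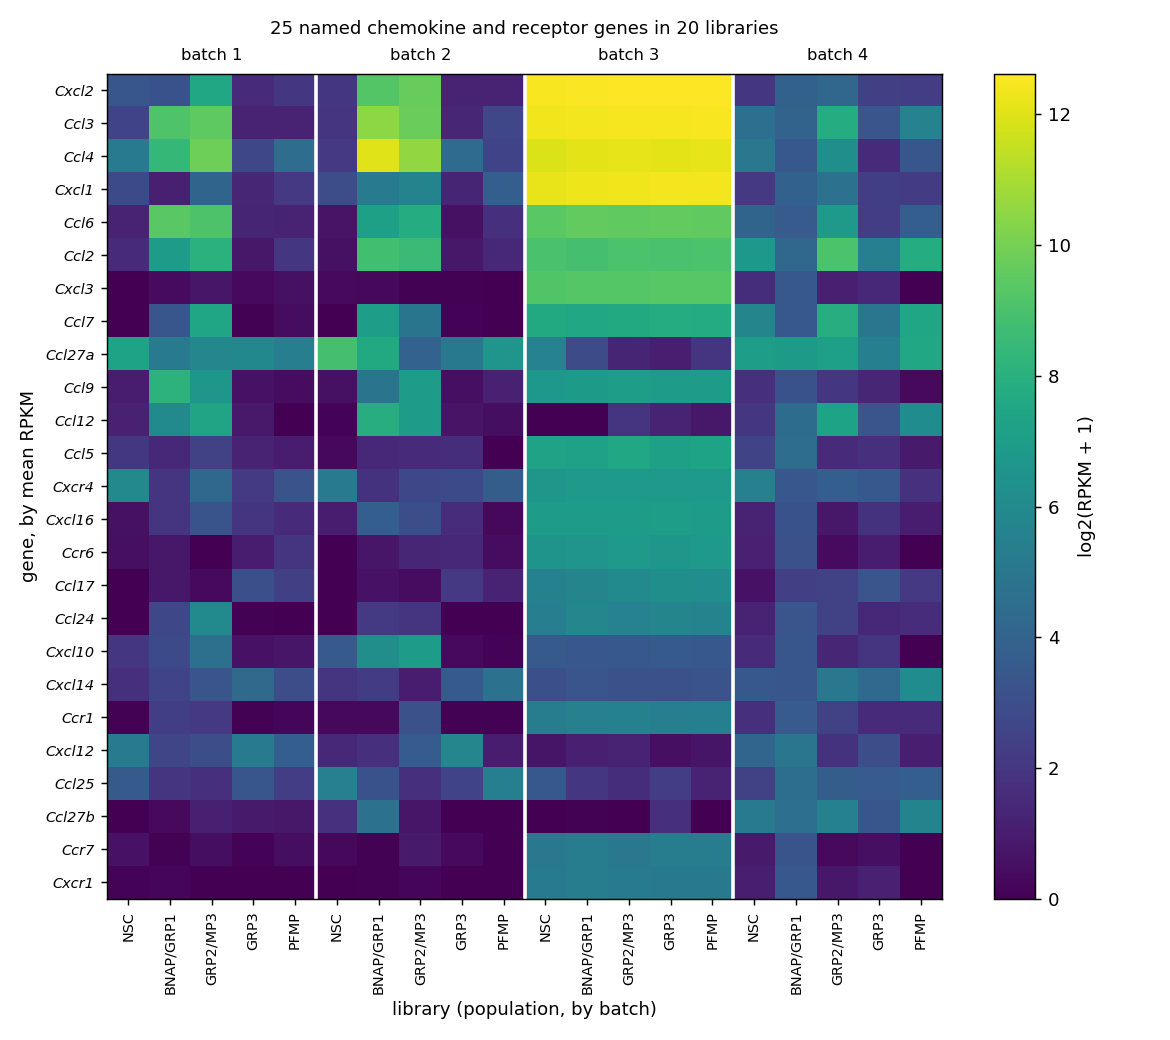
Colour gives log2(RPKM + 1) of the 25 chemokine and receptor genes described by name (rows, in order of mean RPKM) in the 20 libraries (columns, 5 populations in each of 4 batches). The 5 columns of batch 3 are nearly alike within most rows, but not for Ccl27a and Ccl25. Ccl3, Ccl4, Ccl6 and Ccl12 are high in BNAP/GRP1 and GRP2/MP3 of batches 1 and 2.

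The neutrophil-attracting ligands Cxcl1, Cxcl2 and Cxcl3 were high in batch 3. Cxcl1 lay at 4741 (NSC), 5065 (BNAP/GRP1), 5287 (GRP2/MP3), 5332 (GRP3) and 5350 RPKM (PFMP) in batch 3. In the other 15 libraries it ran from 1.15 to 50.5 RPKM, so that the lowest batch 3 library was 94.0-fold above the highest other one. Cxcl3 lay at 585 to 650 RPKM in batch 3 and at most 10.1 elsewhere, a ratio of 58.1. Cxcl2 lay at 5707 to 6309 RPKM in batch 3, a ratio of 7.03, below those of Ccr6 (11.9) and Cxcl16 (9.70). Outside it, Cxcl2 was highest in GRP2/MP3 (190 and 812 RPKM in batches 1 and 2) and in BNAP/GRP1 of batch 2 (606), and between 1.3 and 17.2 in the remaining 12 libraries.

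The genes of these 3 ligands lie together on chromosome 5 (GRCm38): Cxcl3 at chr5:90786103-90789600, Cxcl1 at chr5:90891241-90893115 and Cxcl2 at chr5:90903871-90905938, all on the plus strand, within a group of 5 CXC ligand genes that also holds Cxcl5 and Cxcl15. Their upstream sequences are shown because these neighbours were the highest CXC ligands. Each is the 250 bases before the RefSeq start (GRCm38.p6), 5′ to 3′ on the gene's strand, at chr5:90890995-90891244 for Cxcl1, chr5:90903649-90903898 for Cxcl2 and chr5:90785851-90786100 for Cxcl3. Capitals mark matches to an NF-kB motif, GGGNNTTNCC, and to a TATA motif, TATAAA, on either strand.
Cxcl1: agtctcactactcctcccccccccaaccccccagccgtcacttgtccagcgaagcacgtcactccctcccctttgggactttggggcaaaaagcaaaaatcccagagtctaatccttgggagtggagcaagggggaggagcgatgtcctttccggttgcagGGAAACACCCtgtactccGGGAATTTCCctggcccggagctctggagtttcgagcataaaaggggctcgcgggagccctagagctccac
Cxcl2: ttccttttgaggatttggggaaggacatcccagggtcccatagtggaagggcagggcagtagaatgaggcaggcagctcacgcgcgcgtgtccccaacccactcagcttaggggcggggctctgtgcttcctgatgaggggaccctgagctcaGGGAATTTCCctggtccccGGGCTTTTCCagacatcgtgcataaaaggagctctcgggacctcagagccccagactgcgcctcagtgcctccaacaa
Cxcl3: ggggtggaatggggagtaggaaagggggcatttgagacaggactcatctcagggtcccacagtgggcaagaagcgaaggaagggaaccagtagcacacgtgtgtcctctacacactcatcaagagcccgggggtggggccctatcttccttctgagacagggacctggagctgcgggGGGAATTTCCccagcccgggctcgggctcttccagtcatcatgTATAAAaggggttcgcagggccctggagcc
Cxcl1 held 2 NF-kB matches, starting 89 and 71 bases before the start, Cxcl2 held 2 (97 and 78 bases) and Cxcl3 held 1 (73 bases) with a TATA match 30 bases before the start. The motif was present in 4.11% of all 32851 RefSeq upstream windows and in those of 10 of the 38 chemokine and receptor genes that had a window. These 10 were Ccl9, Ccl19, Ccl20, Ccr3, Ccr6, Cxcl1, Cxcl2, Cxcl3, Cxcl9 and Cxcl10. They did not share an expression pattern: Cxcl1 was high in batch 3 alone, while Ccl20 peaked at 7.4 RPKM, in BNAP/GRP1 of batch 4. A match is a description of the letters and says nothing of binding.

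Over all tested chemokine and receptor genes, 17 of 46 (37.0%) had their 5 batch 3 libraries all above the other 15, against 5.18% of all genes tested. None had them all below, against 6.97% of all genes. For none of the 46 did batch 1, 2 or 4 lie wholly above or below the rest. The 17 were the CXC ligands Cxcl1, Cxcl2, Cxcl3, Cxcl5, Cxcl13 and Cxcl16, the CC ligands Ccl3, Ccl5, Ccl6, Ccl17 and Ccl22, and the receptors Ccr1, Ccr6, Ccr7, Cxcr1, Cxcr4 and Cxcr5. The 5 libraries share a batch number and are not replicates of a condition, so no p is given. What part the other tissues' markers have in this was not tested.

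Receptors of leukocytes were also highest in batch 3. Ccr6, the receptor of Ccl20 on lymphocytes and dendritic cells, lay at 92.1 to 111 RPKM in batch 3 and at most 7.7 elsewhere. Ccr7, which guides T cells and dendritic cells to lymph nodes, lay at 31.9 to 40.0 RPKM against at most 8.7. Cxcr1, a receptor of neutrophils, and Cxcr5, a receptor of B cells for Cxcl13, lay at 33.6 to 39.3 and 30.9 to 35.8 RPKM, against at most 10.1 and 7.4, and in each of these 4 receptors the highest value outside batch 3 was that of BNAP/GRP1 in batch 4. Ccr1, which binds Ccl3 and Ccl5, lay at 38.6 to 45.4 RPKM against at most 11.3. Ccl5, a ligand of T cells and monocytes, lay at 145 to 181 RPKM against at most 21.9, and Cxcl16, the ligand of Cxcr6, at 123 to 129 against at most 12.7. Without a batch term the populations did not differ in these genes beyond the spread between batches. The log2 difference between the CD140a gates was 1.44 ± 2.06 SE for Cxcl1 (limma adjusted p = 0.895), 0.44 ± 1.90 for Cxcl3 (0.955), 0.43 ± 1.09 for Ccr7 (0.924) and 0.49 ± 1.11 for Cxcr1 (0.916). That of BNAP/GRP1 against NSC was 1.51 ± 1.68 for Cxcl16 (0.866) and 0.75 ± 1.85 for Ccr6 (0.906).

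**Figure D2:**
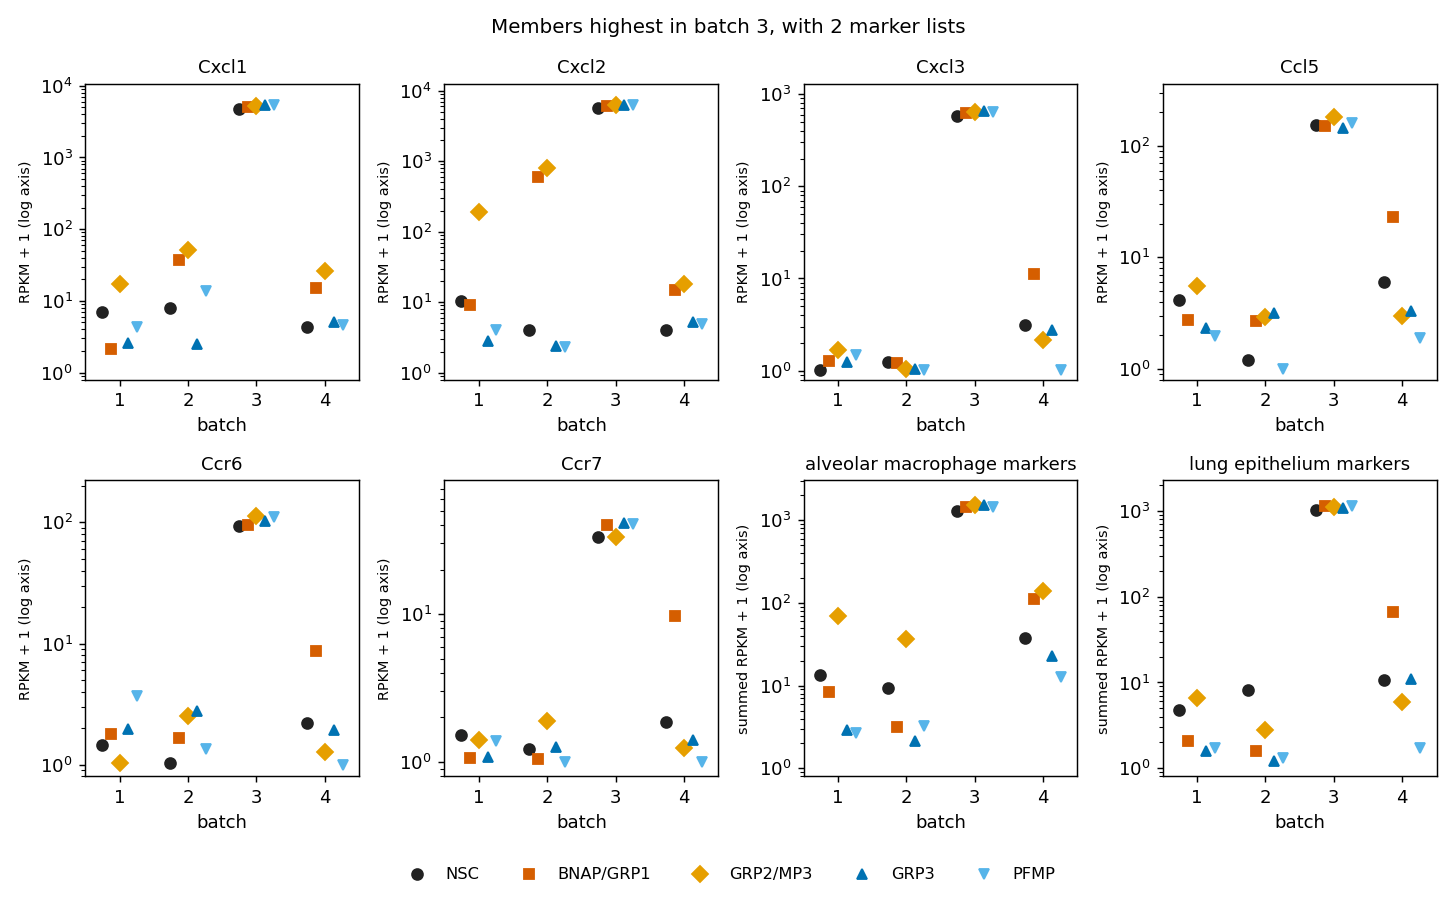
RPKM + 1 on a log axis in each of 20 libraries (x axis, batch; symbols, population) for Cxcl1, Cxcl2, Cxcl3, Ccl5, Ccr6 and Ccr7, and the summed RPKM + 1 of alveolar macrophage and lung epithelium markers. The 5 symbols of batch 3 lie above all others in every panel.

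The 5 libraries of batch 3 were nearly alike. Among the 25 chemokine and receptor genes with a mean of at least 10 RPKM there, the median SD of log2(RPKM + 1) over the 5 libraries was 0.0922, and over all 6473 tested genes of that level it was 0.121. The corresponding medians were 2.92 and 0.967 in batch 1, 3.22 and 1.10 in batch 2, and 1.59 and 1.07 in batch 4. These are descriptions, since genes entered by their mean in the same batch, and a gene high in only 1 or 2 populations could enter through these. The exception in batch 3 was Ccl27a, at 47.6 RPKM in the library labelled NSC and at 1.1 to 6.4 in the others. Ependymal markers also stood out in that library, at a sum of 1186 RPKM against at most 6.4 in the 4 others of batch 3.

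The group comparisons were made with limma on log2(RPKM + 1), with 1 mean per population and no batch term, and a gene was called at an adjusted p under 0.05 over all 27614 genes tested. No chemokine or receptor gene was called in any of them. The share of all genes called was 0.760% in BNAP/GRP1 against NSC, 1.12% in GRP2/MP3 against NSC, 1.05% in GRP3 against NSC and 1.14% in PFMP against NSC, and 1.98% in NSC against the 4 progenitors together. It was 0% for the CD140a-negative against the CD140a-positive gates, 0% for the LeX-positive against the LeX-negative gates and 0% for the 6 direct comparisons of progenitors, so that no gene of any kind was called there. At an unadjusted limma p under 0.05, 1 of the 46 genes passed in BNAP/GRP1 against NSC (5.90% of all genes), 4 in GRP2/MP3 (5.79%), 1 in GRP3 (5.62%), 1 in PFMP (5.88%) and 1 in NSC against the 4 progenitors (6.87%). In the CD140a comparison 8 passed (17.4%), against 4.41% of all genes, and in the LeX comparison none passed, against 0.297%. In the direct comparisons 0 passed between BNAP/GRP1 and GRP2/MP3 (1.20% of all genes), 1 between BNAP/GRP1 and GRP3 (1.90%), 4 between BNAP/GRP1 and PFMP (4.91%), 5 between GRP2/MP3 and GRP3 (1.69%), 3 between GRP2/MP3 and PFMP (1.66%) and 0 between GRP3 and PFMP (0.304%).

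The CD140a gates were also compared within each batch. In batch 1, 19 of 46 chemokine and receptor genes (41.3%) were higher in both CD140a-negative progenitor libraries than in both CD140a-positive ones, against 14.6% of all genes tested. In batch 2 it was 18 of 46 (39.1%) against 12.5%. In batch 3 it was 7 of 46 (15.2%) against 10.8%, and in batch 4 it was 8 of 46 (17.4%) against 13.6%. Lower in both CD140a-negative libraries were 9 of 46 (19.6%) in batch 1, against 27.7% of all genes, 4 (8.70%) in batch 2 against 17.7%, 9 (19.6%) in batch 3 against 12.6% and 0 in batch 4 against 4.40%. In batch 3 more of the 46 genes were thus lower than higher.

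Ccl3 and Ccl4, inflammatory ligands of monocytes and T cells, carried the highest levels. Ccl3 (chr11:83647844-83649355, minus strand) lay at 573, 1409 and 15.2 RPKM in BNAP/GRP1 and at 707, 852 and 228 RPKM in GRP2/MP3 of batches 1, 2 and 4. In the same batches it lay at 1.4, 1.6 and 8.9 RPKM in GRP3, at 1.3, 5.4 and 46.7 in PFMP and at 4.8, 2.9 and 23.3 in NSCs. In batches 1 and 2 the CD140a-negative libraries did not overlap the others, while in batch 4 BNAP/GRP1 fell below PFMP and NSC. In batch 3 all 5 populations lay at 5233 to 5789 RPKM.

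Ccl4 (chr11:83662584-83664683, plus strand) had 338, 4170 and 10.2 RPKM in BNAP/GRP1 and 927, 1503 and 77.7 in GRP2/MP3. It had 5.7, 20.6 and 1.9 RPKM in GRP3, 21.7, 4.8 and 9.2 in PFMP and 37.0, 3.2 and 32.4 in NSCs. BNAP/GRP1 of batch 2, at 4170 RPKM, reached the level of batch 3 (4006 to 4500). In batches 1 and 2 both CD140a-negative libraries exceeded both CD140a-positive ones. In batch 4 both did as well, but BNAP/GRP1, at the general level of that library, lay only just above PFMP.

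Ccl6 and Ccl9, ligands of Ccr1 that lie beside Ccl3 on chromosome 11, followed in part. Ccl6 lay at 666, 141 and 11.2 RPKM in BNAP/GRP1 and at 546, 227 and 111 in GRP2/MP3, against at most 12.5 in GRP3 and PFMP and 15.8 in NSCs of these batches. Ccl9 lay at 281, 28.3 and 8.1 RPKM in BNAP/GRP1 and at 102, 127 and 2.9 in GRP2/MP3, against at most 1.5 in GRP3 and PFMP. In batch 4 both ligands were lower in these gates than in batches 1 and 2, and Ccl6 of BNAP/GRP1 lay below PFMP and NSC.

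Ccl12 (chr11:82101845-82103400, plus strand), a mouse monocyte attractant that acts on Ccr2, was low in batch 3, unlike Ccl3, Ccl4, Ccl6 and Ccl9. It lay at 64.6, 235 and 20.7 RPKM in BNAP/GRP1 and at 166, 124 and 156 in GRP2/MP3 of batches 1, 2 and 4, and at 0 to 2.8 in batch 3. GRP3 had 0.82, 0.60 and 9.2 RPKM, NSCs had 1.2, 0.11 and 3.0, and PFMP had 0, 0.38 and 70.1, so that PFMP of batch 4 stood apart from the other CD140a-positive libraries. The mean of GRP2/MP3 was 112 ± 75.2 RPKM (SD, n = 4), and 149 ± 22.2 (n = 3) without batch 3, against 1.1 ± 1.4 (n = 4) in NSCs. Sequences of Ccl3 and Ccl12 are shown as the ligands that parted in batch 3, in the same form as above, at chr11:83649379-83649628 and chr11:82101595-82101844.
Ccl3: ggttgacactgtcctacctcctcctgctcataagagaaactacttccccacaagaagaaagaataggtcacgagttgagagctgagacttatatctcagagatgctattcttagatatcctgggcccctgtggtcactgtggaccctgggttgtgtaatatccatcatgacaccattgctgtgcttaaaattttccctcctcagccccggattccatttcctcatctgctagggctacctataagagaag
Ccl12: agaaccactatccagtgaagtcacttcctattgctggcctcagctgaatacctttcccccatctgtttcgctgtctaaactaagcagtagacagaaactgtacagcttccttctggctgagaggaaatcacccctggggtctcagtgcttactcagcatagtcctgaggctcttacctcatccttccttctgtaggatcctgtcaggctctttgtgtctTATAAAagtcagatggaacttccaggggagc
Neither window held the NF-kB letters, and Ccl12 held a TATA match 31 bases before the start. TATAAA was present in 12.4% of all upstream windows. The motifs TGANTCA (AP-1), GAGGAAGT (PU.1) and GAAANNGAAA (an interferon response element) were also searched, without a match in any of the 5 windows shown. They were present in 6.75%, 2.44% and 2.98% of all windows, and in the windows of 6, 1 and 3 of the 38 chemokine and receptor genes.

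Cxcl10, an interferon-induced ligand of Cxcr3, lay at 6.1, 73.7 and 9.2 RPKM in BNAP/GRP1 and at 24.5, 125 and 1.5 in GRP2/MP3 of batches 1, 2 and 4, against at most 2.7 in GRP3 and PFMP and 10.8 in NSCs. Its batch 3 libraries, at 9.8 to 11.1 RPKM, lay within the range of the others.

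**Figure D3:**
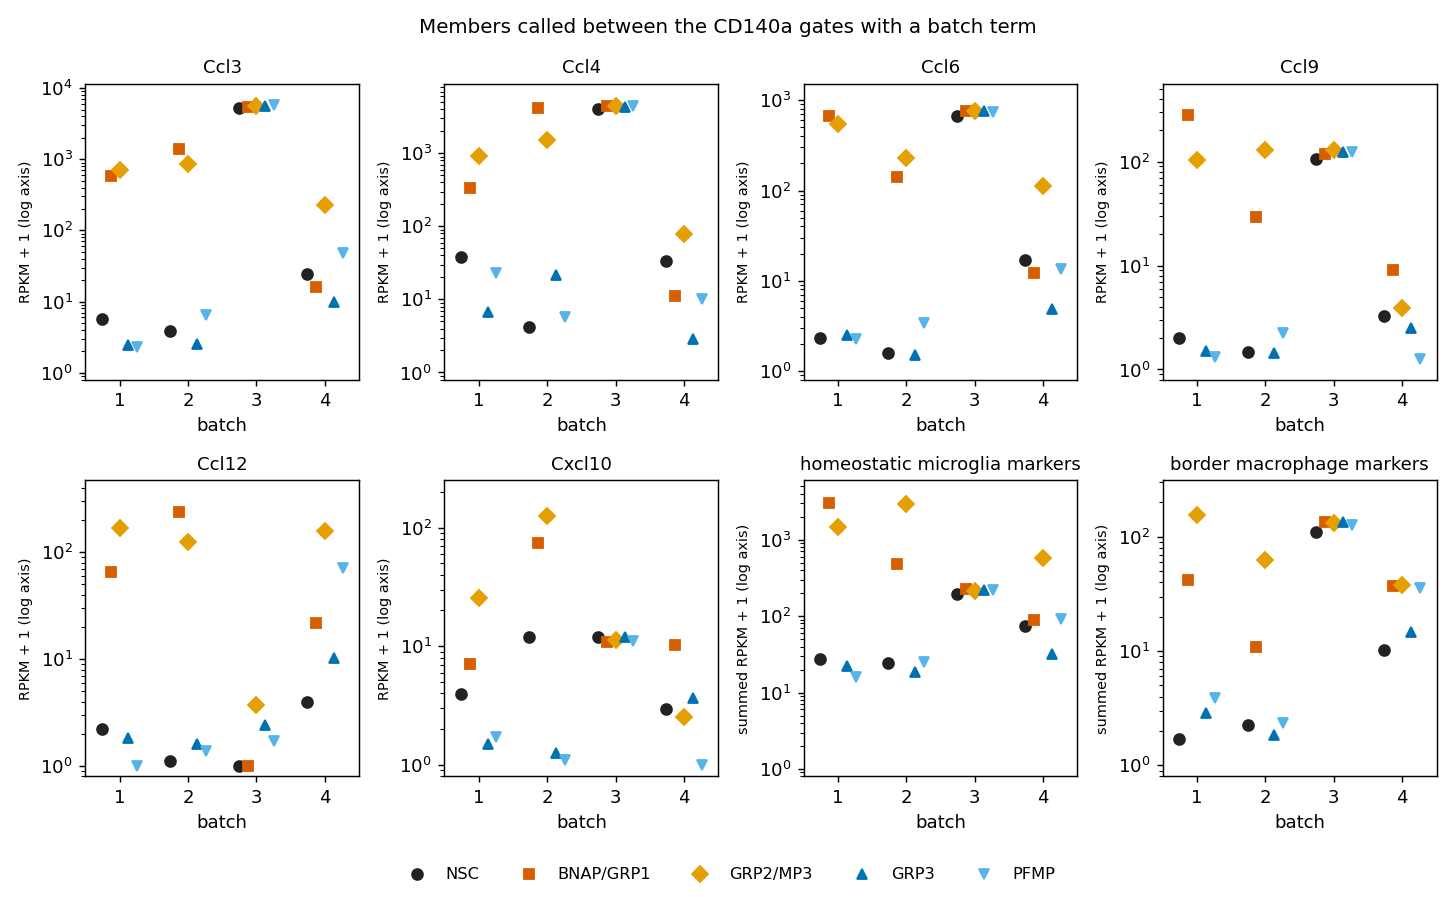
RPKM + 1 on a log axis by batch (x axis) and population (symbols) for Ccl3, Ccl4, Ccl6, Ccl9, Ccl12 and Cxcl10, and the summed RPKM + 1 of 10 homeostatic microglia markers and of 6 border macrophage markers. BNAP/GRP1 and GRP2/MP3 (squares and diamonds) are above GRP3 and PFMP (triangles) in batches 1 and 2 in every panel, and Ccl12 is near 0 in batch 3 whereas Ccl3 is at its highest.

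With the batch number as a term in the fit, 7 of 46 chemokine and receptor genes (15.2%) were called between the CD140a gates, all of them higher in the CD140a-negative gates, against 0.999% of all genes in that direction. They included Ccl6 (log2 difference 4.12 ± 0.90 SE, limma adjusted p = 0.0386), Ccl9 (3.44 ± 0.77, 0.0415), Ccl3 (4.40 ± 1.01, 0.0422), Ccl12 (3.54 ± 0.85, 0.0453), Ccl4 (3.94 ± 0.96, 0.0473) and Cxcl10 (2.69 ± 0.66, 0.0473). Without batch 3 as well, 10 were called (21.7%), against 1.80% of all genes, adding Cxcl2 (4.52 ± 0.91, limma adjusted p = 0.0137), Ccl24 (2.59 ± 0.61, 0.0330) and Ccl2 (4.58 ± 1.08, 0.0334). In batches 1 and 2 alone 6 were called (13%), against 1.50% of all genes: Ccl2, Ccl3, Ccl6, Ccl9, Ccl12 and Cxcl10.

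These calls rested on few libraries. With the batch term, none of the 7 was called once batch 1, batch 2 or batch 4 was left out, nor once any of the progenitor libraries of these batches was left out other than GRP2/MP3 of batch 4, whose omission left 6 genes called, 5 of them among the 7. In the 11 fits without 1 such library at most 1 gene of all 27614 was called. Leaving out 1 NSC library left 1 to 4 calls, and leaving out a progenitor library of batch 3 gave 8 or 11. The log2 differences of the 7 genes kept their sign in all 20 fits without 1 library, from 2.26 (Cxcl10) to 5.07 (Ccl3).

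Homeostatic microglia markers (10 of 10 found) were also higher on average in the CD140a-negative gates outside batch 3. Their sum was 2973, 485 and 87.1 RPKM in BNAP/GRP1 and 1448, 2965 and 572 in GRP2/MP3 of batches 1, 2 and 4, against 14.97 to 91.8 in the NSC, GRP3 and PFMP libraries of these batches. All 10 had a higher mean in the CD140a-negative gates, P2ry12, a receptor typical of microglia, at 283 against 4.5. In batch 3 the sum was 191 to 222 RPKM, with Csf1r, which other macrophages also express, at 78.7 to 90.6, P2ry12 at 0.9 to 1.5, Tmem119 at 0.7 to 1.1 and Sall1 at 0 to 0.4. Border macrophage markers (6 of 6 found, all 6 higher in the CD140a-negative gates) summed to 9.8 to 156 RPKM in BNAP/GRP1 and GRP2/MP3 and to 0.71 to 34.7 in the other populations outside batch 3. Other lists also had higher means in the CD140a-negative gates of these batches. Pericyte markers (7 of 7 higher in the CD140a-negative gates) summed to 448 to 7337 RPKM in GRP2/MP3 and 8.5 to 192 in BNAP/GRP1, against at most 113 in NSC, GRP3 and PFMP. Neutrophil and monocyte markers (7 of 7 higher) summed to 167, 142 and 12.3 RPKM in GRP2/MP3 of batches 1, 2 and 4. In BNAP/GRP1 they summed to 9.7, 8.1 and 119 RPKM, against at most 19.9 in NSC, GRP3 and PFMP. BNAP/GRP1 of batches 1 and 2 and GRP2/MP3 of batch 4 thus lay below all NSC libraries of these batches (16.2 to 19.9). Erythrocyte markers (3 of 3 higher) lay at 1754 to 10722 RPKM in GRP2/MP3 and 68.1 to 1692 in BNAP/GRP1, against at most 345. Alveolar macrophage (8 of 8), lung epithelium (8 of 8), endothelial (7 of 7), ependymal (6 of 6) and lymphocyte markers (9 of 10) also had higher means in the CD140a-negative gates. None of 7 oligodendrocyte progenitor markers and 1 of 6 fibroblast markers did. These means include BNAP/GRP1 of batch 4, whose general level was high. No lung epithelium marker had a mean above 2.9 RPKM in the CD140a-negative gates. Alveolar macrophage markers summed to 7.3, 2.2 and 112 RPKM in BNAP/GRP1 of batches 1, 2 and 4. In GRP2/MP3 they summed to 69.2, 35.6 and 140 RPKM, against at most 36.8 in NSC, GRP3 and PFMP. The part of any of these in the chemokine differences was not tested. In bulk libraries, more cells of a type and more RNA per cell cannot be told apart.

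**Figure D4:**
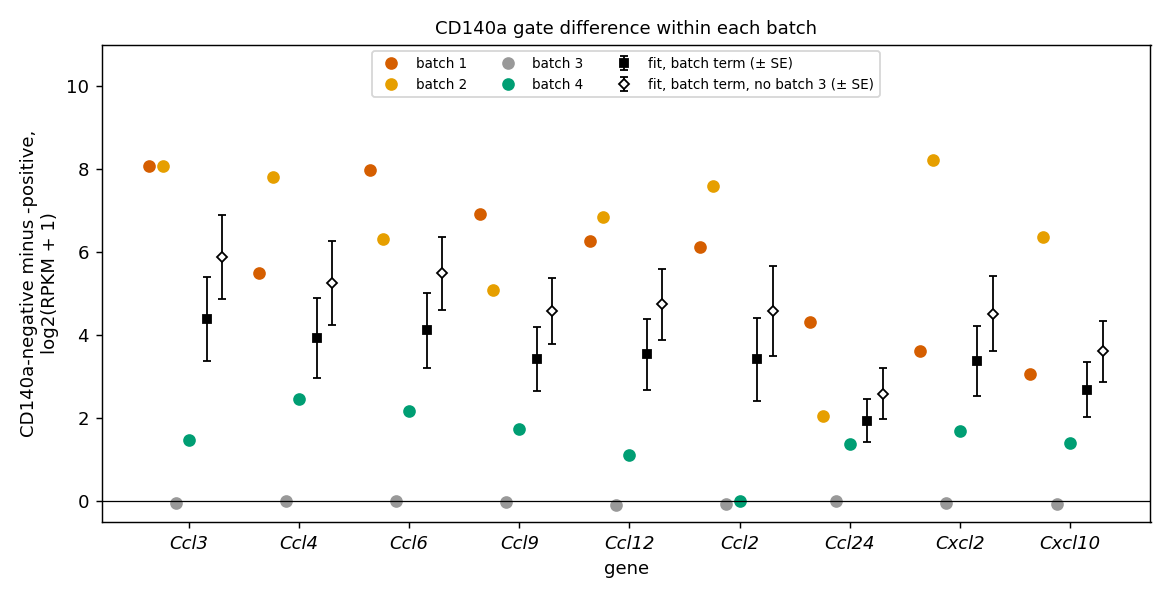
Difference of the CD140a-negative minus the CD140a-positive progenitor libraries, in mean log2(RPKM + 1), within each batch (coloured points) for 9 genes, with the limma estimate ± SE from fits with a batch term, with all batches (squares) and without batch 3 (diamonds). Points of batches 1 and 2 are at 2.07 or above, those of batch 3 between -0.08 and 0.02.

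Other monocyte-attracting ligands were not called with the batch term and all batches. Ccl2, the main ligand of Ccr2, lay at 124, 446 and 17.5 RPKM in BNAP/GRP1 and at 267, 394 and 531 in GRP2/MP3. In batch 4 it was also at 222 RPKM in PFMP, 107 in NSCs and 42.2 in GRP3, so that the gate difference within batch 4 was 0.01 on the log2 scale, against 6.12 and 7.60 in batches 1 and 2. Ccl7, a related ligand, gave 52.1 (NSC), 10.1 (BNAP/GRP1), 230 (GRP2/MP3), 30.0 (GRP3) and 169 RPKM (PFMP) in batch 4. Its difference over all batches was 2.58 ± 0.91 SE with the batch term (limma adjusted p = 0.201). Ccl24, an eosinophil attractant, reached 61.6 RPKM in GRP2/MP3 of batch 1, was at or below 9.1 in the other 14 libraries outside batch 3, and gave 1.95 ± 0.53 (limma adjusted p = 0.0707).

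Neighbouring genes on a chromosome were not all called together. The 6 ligand genes at chr11:82035571-82305690 comprise Ccl2, Ccl7, Ccl11, Ccl12, Ccl8 and Ccl1, and those at chr11:83525778-83664683 comprise Ccl5, Ccl9, Ccl6, Ccl3 and Ccl4. Of the former, Ccl12 was called, while Ccl8 and Ccl11 did not exceed 5.9 and 4.4 RPKM in any library and Ccl1 was not tested. Of the latter, 4 of 5 were called, and Ccl5 was not (0.84 ± 0.40 SE, limma adjusted p = 0.406), at 1.7, 1.7 and 21.9 RPKM in BNAP/GRP1 and 4.5, 1.9 and 1.9 in GRP2/MP3. The receptor Ccr1 was not called either (1.34 ± 0.39, limma adjusted p = 0.102).

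Over the whole list the median log2 difference between the CD140a gates was 0.43, and 0.22 over all genes. Of the 46, 40 were above 0, against 63.8% of all genes. These values depended on the processing and on the batches. With a pseudocount of 0.1 the medians were 0.97 and 0.30 (42 of 46 above 0). With a mean of at least 5 RPKM they were 0.71 and -0.07 (25 of 30), and after quantile normalization 0.12 and 0.01 (29 of 46). In batches 1 and 2 alone with the batch term they were 0.17 and -0.01. There 31 of 46 were above 0, against 44.8% of all genes.

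Other genes of chemokine signalling were taken from a list of 32 found and 31 tested. None was called by limma without a batch term in any of the 7 main comparisons, and at an unadjusted limma p under 0.05 between 0 (the LeX gates, 0.297% of all genes) and 7 of 31 (the CD140a gates, 4.41% of all genes) passed. With it, 7 of 31 were called between the CD140a gates, all higher in the CD140a-negative ones, against 0.999% of all genes in that direction. As for the chemokine genes, these calls rested on few libraries, since in the 11 fits named above at most 1 gene of all was called. The 7 were Cx3cr1, the microglial receptor of fractalkine (3.51, limma adjusted p = 0.0377), Rac2, a leukocyte GTPase (2.45, 0.0377), Ccrl2, an atypical receptor (2.76, 0.0387), Rgs10, a regulator of G protein signalling (3.45, 0.0422), Was (1.74, 0.0436), Pik3cg, a leukocyte PI3 kinase (2.04, 0.0438) and Pf4, a platelet chemokine (3.81, 0.0473). Cx3cr1 lay at 231, 39.2 and 10.7 RPKM in BNAP/GRP1 and at 101, 121 and 19.8 in GRP2/MP3 of batches 1, 2 and 4, at most 4.2 in the other populations and 0.36 to 1.2 in batch 3. Its batch 3 values were thus as low as those of Ccl12. Ccrl2 went the other way, with 326 to 364 RPKM in batch 3 and at most 114 elsewhere.

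In comparisons with NSCs, between 0 and 3 of the 46 genes were called with the batch term and all batches, which is near the share of all genes. Cxcr4 (chr1:128588199-128592293, minus strand), the receptor of Cxcl12, lay at 61.5, 35.4 and 43.6 RPKM in NSCs of batches 1, 2 and 4, and between 2.5 and 17.5 RPKM in the 12 progenitor libraries of these batches, with no overlap. In batch 3 NSCs had 101 RPKM, the lowest of the 5, and the progenitor libraries had 107 to 111. The mean of NSCs was 60.4 ± 29.2 RPKM (SD, n = 4), and 46.8 ± 13.4 (n = 3) without batch 3, against 5.1 ± 4.0, 11.9 ± 5.9, 6.7 ± 3.4 and 7.7 ± 4.9 (n = 3 each) in BNAP/GRP1, GRP2/MP3, GRP3 and PFMP.

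Cxcr4 was not called between NSCs and the 4 progenitors without a batch term (log2 difference 1.93 ± 0.94 SE, limma adjusted p = 0.742). It was called with the batch term (1.93 ± 0.49, limma adjusted p = 0.0249), with 2 further genes, Ccl27a and Ccl17, so that 3 of 46 were called (6.52%), against 4.36% of all genes. Without batch 3 and with the batch term it was 2.61 ± 0.55 (limma adjusted p = 0.0122) and was then the only 1 of the 46 called (2.17%), against 3.53% of all genes. The call with all batches was lost without NSC of batch 1, 2 or 4, at limma adjusted p up to 0.254. Ependymal markers, 6 of 6 found, were also highest in NSCs. Their sum was 2749, 12544 and 4168 RPKM in NSCs of batches 1, 2 and 4 and at most 97 in the progenitor libraries of these batches. Among these NSC libraries Cxcr4 ran in another order, at 61.5, 35.4 and 43.6 RPKM. In batch 3 the ependymal markers were highest in the NSC library, where Cxcr4 was lowest but close to the others (101 to 111 RPKM over the batch). So few libraries cannot settle what part these markers have. Endothelial markers summed to 283, 128 and 44.1 RPKM in NSCs of batches 1, 2 and 4 and to 5.3 to 128 in the progenitors. The part of the ependymal or endothelial markers in the Cxcr4 difference was not tested.

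Ccl27a, known as a skin T cell attractant, was the highest chemokine of NSCs in batches 1, 2 and 4. It lay at 161, 479, 47.6 and 135 RPKM in NSCs of batches 1 to 4. The values were 34.7, 199, 6.4 and 117 in BNAP/GRP1, 55.9, 14.9, 1.5 and 138 in GRP2/MP3, 58.0, 33.3, 1.1 and 42.0 in GRP3, and 40.6, 93.5, 2.8 and 183 in PFMP. NSCs exceeded all 4 progenitors in batches 1, 2 and 3, and 2 of the 4 in batch 4.

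With the batch term Ccl27a was called in NSCs against the 4 progenitors (2.25 ± 0.54 SE, limma adjusted p = 0.0176), in GRP3 against NSC (-2.86 ± 0.68, 0.0254) and in GRP2/MP3 against NSC (-2.67 ± 0.68, 0.0361). Without batch 3 none of these was called. The differences were then 1.74 ± 0.66 SE (limma adjusted p = 0.243), -2.31 ± 0.84 (0.243) and -2.13 ± 0.84 (0.307), in the same direction. The calls were also lost without NSC of batch 1, 2 or 3 in all 3 comparisons, without GRP3 of batch 2, 3 or 4 in the second, and without GRP2/MP3 of batch 2 or 3 in the third. The gene (chr4:41769467-41774247, minus strand) overlaps Il11ra1 on the other strand and has a near copy, Ccl27b. Reads of such genes may be shared or, where strand is not used, mixed, and the counting by strand is not given in the sources used here. Ccl27b, at 0 to 50.4 RPKM, was at or below 2.5 in 14 of the 20 libraries and highest in PFMP and GRP2/MP3 of batch 4 (50.4 and 46.3).

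Ccl17, a ligand of Ccr4 made by dendritic cells, went the other way, and low. Outside batch 3 it lay at 0, 0 and 0.53 RPKM in NSCs, 7.5, 3.3 and 9.1 in GRP3, 4.3, 1.4 and 3.3 in PFMP, 0.75, 0.56 and 4.2 in BNAP/GRP1, and 0.24, 0.36 and 4.4 in GRP2/MP3. In batch 3 it was 45.5 in NSCs and 52.1 to 76.2 in the progenitors. In every batch, all 4 progenitor libraries exceeded NSCs, and GRP3 was the highest.

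With the batch term, Ccl17 was called in GRP3 against NSC (2.16 ± 0.46 SE, limma adjusted p = 0.0122), and also without batch 3 (2.64 ± 0.62, limma adjusted p = 0.0345), as the only 1 of the 46, against 2.43% of all genes. Together with Ccl27a this made 2 of 46 genes (4.35%) called in GRP3 against NSC, against 2.60% of all genes. The call was lost without NSC of batch 1 or GRP3 of batch 1, 2 or 4, at limma adjusted p up to 0.0790. Without a batch term the adjusted p was 1 in limma. NSCs against the 4 progenitors gave -1.31 ± 0.37 (limma adjusted p = 0.0490), which was lost in 15 of 20 fits that left out 1 library.

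In GRP2/MP3 against NSC, 2 of 46 genes (4.35%) were called with the batch term, against 3.08% of all genes, namely Ccl27a and Ccl12. Ccl12 was 5.06 ± 1.20 higher on the log2 scale (SE, limma adjusted p = 0.0217), and 6.12 ± 1.21 without batch 3 (limma adjusted p = 0.0115), where Ccl3 (5.99 ± 1.43, 0.0352) and Ccl6 (5.94 ± 1.24, 0.0155) were called as well, against 2.70% of all genes. The Ccl12 call was lost without NSC of batch 1, 2 or 4 or GRP2/MP3 of batch 1, 2 or 4, at limma adjusted p up to 0.111. In BNAP/GRP1 against NSC, where the batch term alone gave no call among the 46 genes, only Cxcr4 was called without batch 3 (-3.14 ± 0.69 SE, limma adjusted p = 0.0296), against 1.66% of all genes. No chemokine or receptor gene was called in PFMP against NSC under either fit with a batch term.

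**Figure D5:**
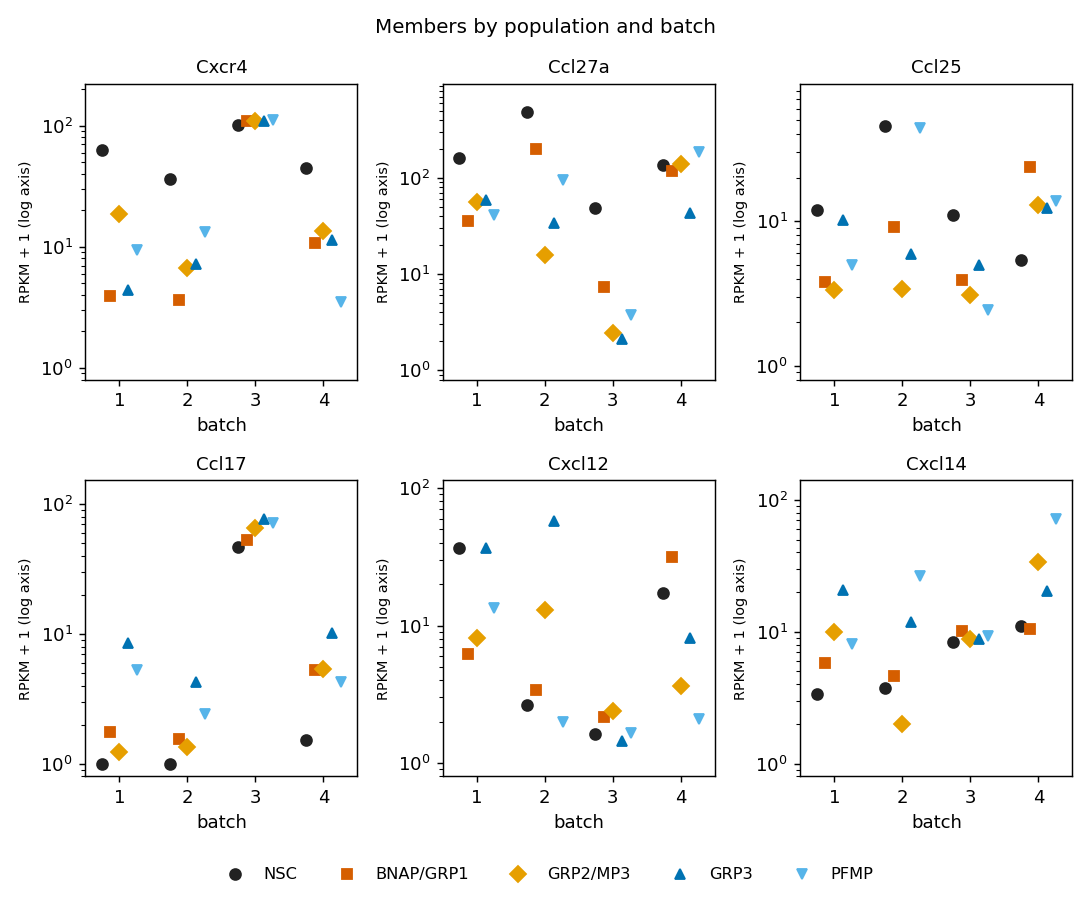
RPKM + 1 on a log axis by batch (x axis) and population (symbols) for Cxcr4, Ccl27a, Ccl25, Ccl17, Cxcl12 and Cxcl14. NSCs (black circles) are the highest for Cxcr4 in batches 1, 2 and 4 and the lowest for Ccl17 in all 4 batches, and GRP3 (dark triangles) is the highest for Cxcl12 in batch 2.

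Cxcl12 and Cxcl14, ligands expressed by cells of the developing brain, varied widely between batches. Cxcl12 lay at 35.4, 1.6, 0.62 and 16.3 RPKM in NSCs and at 35.4, 56.8, 0.45 and 7.1 in GRP3 of batches 1 to 4. The other progenitors had 5.3, 2.4, 1.1 and 30.4 (BNAP/GRP1), 7.1, 11.9, 1.4 and 2.6 (GRP2/MP3) and 12.5, 1.0, 0.67 and 1.1 (PFMP). Neighbours in the order of means (GRP3, 24.9 ± 26.1 RPKM; NSC, 13.5 ± 16.3; BNAP/GRP1, 9.8 ± 13.8; SD, n = 4) did not differ beyond their spread. Its smallest unadjusted p among the 7 main comparisons was that of the LeX gates (-0.92 ± 0.83 SE, limma adjusted p = 1).

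Cxcl14 was low in NSCs, at 2.4, 2.7, 7.4 and 10.01 RPKM, and higher in PFMP, at 7.0, 25.3, 8.3 and 70.1, and in GRP3, at 19.6, 10.8, 7.9 and 19.2. PFMP exceeded NSCs in 4 of 4 batches, by 1.73 ± 0.78 SE on the log2 scale (limma adjusted p = 0.746, and 0.175 with the batch term). Ccl25, a thymus and gut ligand of Ccr9, lay at 10.9, 44.8, 9.95 and 4.4 RPKM in NSCs and at 2.4, 2.4, 2.1 and 12 in GRP2/MP3 (-1.54 ± 0.86 SE, limma adjusted p = 1 without the batch term and 0.420 with it). It overlaps Elavl1 on the other strand.

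A further 20 tested genes were low. All but Cxcr5, Cxcl13, Cxcl5 and Ccl22 did not exceed 11.7 RPKM, and 13 of the 20 had their highest value in BNAP/GRP1 of batch 4, between 4.4 and 11.7 RPKM. These 13 were the receptors Ccr2, Ccr8, Ccr9, Ccr10, Cxcr2, Cxcr6 and Xcr1 and the ligands Ccl11, Ccl19, Ccl20, Cxcl9, Cxcl11 and Cxcl15. Ccl8, Cxcl17 and the receptor Cxcr3 were highest in batch 3, at up to 5.9 RPKM. Of the 7 genes not tested, Ccl1, Ccl28, Ccl21a, Ccr3 and Ccr4 also had their highest value in that library, up to 11.5 RPKM, Ccl26 reached 1.1 in GRP3 of batch 4, and Ccl21b was at 0. The values of up to 11.7 RPKM in BNAP/GRP1 of batch 4 are at the general level of that library.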

How the data were processed

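Poly(A) RNA of sorted cells was amplified and sequenced in 20 libraries. The authors processed the reads with nf-core/rnaseq, using FastQC 0.11.9, cutadapt 3.4, STAR 2.6.1 on GRCm38 and Salmon 1.9.0, with DESeq2 1.26.0 for their own tests, and deposited RPKM per gene. Read totals, gene lengths, annotation release and strandedness of counting are not given in the sources used here. The table holds 26 unnamed columns that were not used.

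Values were analysed as log2(RPKM + 1), without further scaling. A fold change on this scale understates changes of low genes. Genes reaching 1 RPKM in 4 or more of the 20 libraries were tested with limma 3.58.1 (lmFit, eBayes with a trended prior) in R 4.3.3, with 5 population means, all libraries and Benjamini-Hochberg adjustment over 27614 genes. The batch term was an alternative. The labels give the pairing by batch: after removal of population means, libraries correlated with a median r of 0.337, 0.262, 0.769 and 0.581 within batches 1 to 4 (lowest 0.0341) and -0.254 between batches. Removal of means over 4 batches by itself makes the correlation between batches negative, so that value is no measure of pairing. The fits were tested on simulated data with independent errors, no batch effect and a log2 shift of 6 in 200 genes. Of these, 184 were called without the batch term and 181 with it, beside 12 and 10 unchanged genes. How the fits behave under batch effects was not simulated. Without a batch term, p-values measure the spread between the 4 batches. The pups of a litter were pooled, and the labels do not say how many litters a batch holds. With it, they measure how much the differences between populations vary from batch to batch. Relative depth was estimated from the most common ratio of a gene's RPKM between 2 libraries. Positions are from GENCODE vM21 (GRCm38) and upstream sequences from RefSeq (GRCm38.p6). Figures used Python 3.11.15 and matplotlib 3.10.9.

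The genes, gene lists and markers were chosen with earlier results of these data known. Genes are described by name if called, among the 20 of highest mean RPKM, Cxcl12 or Cxcr4, or among the next 3 ligands and 3 receptors. A gene of the list and a marker are not reported here by name. Each other gene is given in the comparison of its smallest unadjusted p. Alternatives were the pseudocount, filter, scaling, prior, array weights, populations fitted, batch term and libraries left out. Batches 1 and 2 alone, and leaving out libraries with the batch term, were added after seeing the data.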

Additional observations from a re-analysis of the deposited data

Results flagged for a closer look

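In each population of 4 libraries, the gap of the highest or lowest value to its neighbour was compared with the range on the log2(RPKM + 1) scale (Dixon's 95% limit for 4 values). Of 130 groups, 32 passed the limit. The nominal rate of 1 in 20 is no yardstick for this count. Many of the genes were chosen for a high mean RPKM over all libraries, batch 3 included. The populations also share their batches, so the groups are not independent. In 26 of the 32 the outlying library was that of batch 3.

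Outlying high values in batch 3 were found for Cxcl2 (5707, 6223 and 6309 RPKM in NSC, GRP3 and PFMP), Cxcl1 (4741, 5332 and 5350 in the same populations), Cxcl3 (635, 650 and 642 in GRP2/MP3, GRP3 and PFMP), Ccl9 (123 and 122 in GRP3 and PFMP) and Ccl5 (181, 145 and 159 in GRP2/MP3, GRP3 and PFMP). They were also found for Cxcl16 (125 and 129 in NSC and GRP3), Ccr6 (101 in GRP3), Ccl17 (45.5 in NSC), Ccr7 (31.9, 32.0, 40.0 and 39.3 in NSC, GRP2/MP3, GRP3 and PFMP) and Cxcr1 (36.3 and 33.6 in GRP2/MP3 and PFMP). Outlying low values in batch 3 were those of Ccl27a in GRP3 (1.11 RPKM, against 33.3 to 58.0 in the other batches) and Ccl12 in GRP2/MP3 (2.75, against 124 to 166).

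Outside batch 3, the outlying values were Ccl7 in GRP2/MP3 of batch 2 (29.0 RPKM, against 168 to 230), Ccl9 in GRP2/MP3 of batch 4 (2.93, against 102 to 129), Ccl12 in PFMP of batch 4 (70.1, against at most 0.73), Cxcl12 in PFMP of batch 1 (12.5, against at most 1.1), Ccl25 in GRP2/MP3 of batch 4 (12, against at most 2.4) and Ccl27b in PFMP of batch 4 (50.4, against at most 0.77). In GRP2/MP3 of batch 4, where Ccl9 was low, pericyte markers summed to 7337 RPKM, against 448 and 509 in batches 2 and 1, and homeostatic microglia markers to 572, against 2965 and 1448. Their part was not tested.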

How the results depend on the processing

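Without a batch term, the counts of chemokine and receptor genes called stayed at 0 in all 8 comparisons under another pseudocount (0.1), no filter, a stricter filter, rescaled or quantile-normalized libraries and an untrended prior, and in the 6 comparisons refitted with only the populations compared. The share of all genes called by the same fit stands in brackets from here. With the replicate block (the batch term) the counts were 2 for GRP2/MP3 against NSC (3.08%), 2 for GRP3 against NSC (2.60%), 7 for the CD140a gates (1.44%) and 3 for NSC against the 4 progenitors (4.36%), and 0 elsewhere. With the block and without batch 3 they were 1 (1.66%), 3 (2.70%) and 1 (2.43%) for BNAP/GRP1, GRP2/MP3 and GRP3 against NSC, 10 for the CD140a gates (2.8%), 1 for NSC against the 4 progenitors (3.53%) and 1 for the direct comparisons (0.272%). In batches 1 and 2 alone with the block they were 4 (3.01%) and 5 (3.86%) for BNAP/GRP1 and GRP2/MP3 against NSC, 6 for the CD140a gates (3.12%), 4 for NSC against the 4 progenitors (4.79%) and 2 for the direct comparisons (0.188%), and 0 for GRP3 (3.32%). Array weights gave 7 (9.5%), 6 (6.97%) and 4 (17.7%) for BNAP/GRP1, GRP2/MP3 and GRP3 against NSC, 10 for the CD140a gates (9.06%), 2 for NSC against the 4 progenitors (9.75%) and 13 for the direct comparisons (15.4%), of 46 genes each. Counts for PFMP against NSC and for the LeX gates were 0 in all of these.

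Leaving out a library or a batch, without the block, gave 0 to 1, 0 to 3, 0 to 8 and 0 to 1 for BNAP/GRP1 against NSC, GRP2/MP3 against NSC, the CD140a gates and NSC against the 4 progenitors. The counts above 0 all came without batch 3 or without its GRP2/MP3 library. With the block the ranges were 0 to 11 for the CD140a gates, 0 to 7 for GRP2/MP3 against NSC, 0 to 2 for GRP3 against NSC and 0 to 3 for NSC against the 4 progenitors. The number of genes with batch 3 wholly above the others was 17 after rescaling and 19 without the filter.

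Over all genes, calls ranged across the alternatives (libraries left out aside) from 61 to 2622 for BNAP/GRP1 against NSC (210 as reported), from 114 to 1924 for GRP2/MP3 (308), from 115 to 4885 for GRP3 (290), from 95 to 1443 for PFMP (316), from 423 to 2693 for NSC against the 4 progenitors (546), from 0 to 2501 for the CD140a gates (0) and from 0 to 4263 for the direct comparisons (0). The highest count of each came with array weights.

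Of 884 values of single genes, 824 kept their direction and side of the threshold. As none was called without a batch term and with all libraries, these stayed uncalled. A further 49 passed the threshold in the same direction, in 14 of 26 genes, and 11 turned, in 5 genes that were not called. The log2 difference between the CD140a gates ran over the libraries left out from -0.64 to 1.58 for Cxcl3, from -0.13 to 1.08 for Ccr7, from -0.12 to 1.13 for Cxcr1 and from -0.14 to 1.26 for Ccl27b. It was -0.30 for Ccl27b with array weights, and -0.033 for Ccl27b without GRP2/MP3 of batch 4. That of Ccr6 in BNAP/GRP1 against NSC ran from -0.50 to 2.24. The causes of these changes were not tested. Read totals are not given, so what depth limits could not be measured.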
